A study of Mus musculus with 8 samples.

Results

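The genes described here are 47 members of the machinery that folds proteins in the endoplasmic reticulum (ER), of the channel that brings new proteins into it and of the unfolded protein response that watches over it. They were chosen by name, from a list of chaperones, isomerases, stress sensors, degradation factors, translocon subunits and signal peptidase subunits. The choice was made with earlier results of these data known. All 47 had values, out of 15747 genes with values in the series. The tissue was whole Achilles tendon of wild-type mice (C57BL/6J), read by bulk RNA sequencing in 4 libraries labelled injury and 4 labelled sham. The injury was a partial transection made with an ear punch of 1.5 mm, which took a half-round piece of 0.75 mm out of the tendon. The tendon was freed from the soleus muscle before RNA extraction. The labels used here give neither age nor the time from operation to sampling. Whether each library stands for its own animal is not stated, and the p-values therefore describe the spread among these libraries, which may be technical.

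The ER is where secreted and membrane proteins enter the secretory pathway. A new chain passes through the Sec61 channel, loses its signal peptide, and is folded by chaperones, by lectins that bind its sugars, by disulfide isomerases and by prolyl isomerases. Tendon fibroblasts export large amounts of fibrillar collagen, whose triple helix folds slowly and needs Serpinh1 (HSP47), a chaperone dedicated to procollagen. When unfolded chains accumulate, the sensors encoded by Ern1 (IRE1), Eif2ak3 (PERK) and Atf6 start the unfolded protein response, which raises chaperones and degradation factors and, through Atf4, Ddit3 (CHOP) and Trib3, a branch tied to growth arrest and cell death.

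The deposited values are normalised read counts per gene. They summed to 14568669 to 16263086 per injury library and to 13596488 to 15545903 per sham library. Each of 33 skeletal muscle marker genes fell after injury, and their share of all normalised counts was 0.446, 0.822, 2.05 and 2.74% in injury libraries 1 to 4, against 9.33, 9.13, 8.04 and 13.6% in sham libraries 1 to 4. Acta1, the skeletal muscle actin, was the most abundant of them, at 11106 to 69625 in injury and 201443 to 334433 in sham. Of 8 tenocyte markers 6 rose, and the list held 15.7 ± 0.995% of counts in injury and 5.84 ± 1.81% in sham (SD, n = 4 each), most of it from Col1a1 and Col1a2. Scx, Mkx and Tnmd, which define tenocytes, were read in all 8 libraries. All 6 adipocyte markers fell, 7 of 8 macrophage markers and all 6 measured chondrocyte markers rose, 4 of 6 proliferation markers rose, 4 of 6 endothelial markers fell, and none of 5 mast cell markers passed the test. Their shares of counts averaged 0.0231% in injury and 0.128% in sham for the adipocyte list (led by Fabp4), 0.0819% in injury and 0.0606% in sham for macrophages (Csf1r), and 0.635% in injury and 0.355% in sham for chondrocytes (Comp). The proliferation list (Mki67) held 0.00299% in injury and 0.00154% in sham. The endothelial list (Pecam1) held 0.0600% in injury and 0.0850% in sham, and the mast cell list (Kit) 0.00263% in injury and 0.00237% in sham. For scale, 28.5% of all genes tested rose and 31.3% fell. The part of these marker lists other than muscle in the results was not tested. Plasma cells are rich in ER machinery. Of 10 B and plasma cell markers 9 had no value, among them Jchain, Mzb1 and Cd79a, and only Sdc1, which other cells express too, was measured. In bulk tissue, fewer cells of a type and less RNA per cell cannot be told apart.

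Promoter sequences came from RefSeq (build GRCm38.p6), as 300 bases for each gene, 250 before its start and 50 after it. Of the 47 members 39 matched an entry. The others were Hyou1, Manf, Fkbp10, Atf6, Creb3l1, Sec61a1, Ssr2 and Spcs3. Both strands were searched for exact matches to the ER stress response element (ERSE), spelled CCAAT, any 9 bases and CCACG, which is known to be bound by NF-Y at CCAAT and by ATF6 or XBP1 at CCACG. It was present in 7 of 39 members (17.9%), against 37 of 27025 genes with an entry (0.137%), a figure that includes the members. The matches are shown because the element is known to link genes of the unfolded protein response to its sensors. As the members were chosen by name from such machinery, these shares are a description and were not tested. The matches are written 5′ to 3′ along the motif, with its fixed letters in capitals, and Hsp90b1 had 2 of them.
Hspa5 (chr2:34772025-34772043, plus strand): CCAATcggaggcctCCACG
Hsp90b1 (chr10:86705638-86705656, minus strand): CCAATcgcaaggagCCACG
Hsp90b1 (chr10:86705533-86705551, plus strand): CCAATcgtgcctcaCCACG
Calr (chr8:84847075-84847093, plus strand): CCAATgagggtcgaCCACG
Canx (chr11:50325800-50325818, minus strand): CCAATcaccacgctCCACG
Pdia6 (chr12:17266491-17266509, plus strand): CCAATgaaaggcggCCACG
Dnajc3 (chr14:118937827-118937845, plus strand): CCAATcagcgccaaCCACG
Syvn1 (chr19:6046532-6046550, plus strand): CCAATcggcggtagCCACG

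The related ERSE-II, spelled ATTGG, any 1 base and CCACG, was found in 2 of 39 members (5.13%) and in 0.0444% of all genes with an entry. Its 2 matches are written in the same way.
Dnajb11 (chr16:22857852-22857862, plus strand): ATTGGcCCACG
Herpud1 (chr8:94386377-94386387, plus strand): ATTGGgCCACG
The amino acid response element, spelled TGATGNAA and bound by ATF4 with its partners, was found in Herpud1 and Trib3, 2 of 39 members (5.13%), against 4.51% of all genes with an entry. TGACGTGG, the core of the XBP1 element, was in 0 of 39 members and 0.714% of all genes with an entry. A match is a stretch of letters and not a shown binding site.

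The 250 bases before the RefSeq start are printed for 4 members that mark different behaviour in the results: Hspa5 and Hsp90b1, chaperones with ERSE matches, Serpinh1, the member with the largest fold change, and Ddit3, the member that fell. Each is written 5′ to 3′ along its gene. Capitals mark the fixed letters of an ERSE on either strand, and the windows of Serpinh1 and Ddit3 held none of the motifs searched. RefSeq and GENCODE place some starts differently: the windows of Hspa5, Hsp90b1 and Ddit3 run partly into the gene as GENCODE M21 draws it, and the ERSE of Hspa5 lies inside that gene's outer bounds.
Hspa5 (chr2:34771840-34772089, plus strand): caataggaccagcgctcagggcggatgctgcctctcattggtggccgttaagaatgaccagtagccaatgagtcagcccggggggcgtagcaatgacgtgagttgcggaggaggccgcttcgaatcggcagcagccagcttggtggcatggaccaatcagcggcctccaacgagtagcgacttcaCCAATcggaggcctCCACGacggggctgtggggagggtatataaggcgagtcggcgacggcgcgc
Hsp90b1 (chr10:86705445-86705694, minus strand): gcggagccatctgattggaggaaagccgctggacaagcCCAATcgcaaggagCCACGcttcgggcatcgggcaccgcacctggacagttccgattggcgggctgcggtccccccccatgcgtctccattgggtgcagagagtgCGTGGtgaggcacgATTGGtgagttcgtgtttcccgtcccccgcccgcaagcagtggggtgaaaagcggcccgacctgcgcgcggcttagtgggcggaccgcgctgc
Serpinh1 (chr7:99353240-99353489, minus strand): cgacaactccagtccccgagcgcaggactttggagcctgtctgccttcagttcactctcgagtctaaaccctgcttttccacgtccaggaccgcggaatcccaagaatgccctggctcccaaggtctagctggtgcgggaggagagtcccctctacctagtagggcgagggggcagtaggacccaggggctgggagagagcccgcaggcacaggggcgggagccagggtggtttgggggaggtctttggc
Ddit3 (chr10:127290543-127290792, plus strand): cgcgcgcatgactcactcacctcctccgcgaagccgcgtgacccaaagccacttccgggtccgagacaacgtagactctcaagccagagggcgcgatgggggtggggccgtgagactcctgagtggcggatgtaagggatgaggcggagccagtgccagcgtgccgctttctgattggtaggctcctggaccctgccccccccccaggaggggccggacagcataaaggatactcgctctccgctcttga

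Injury was compared with sham to see how partial transection changed this machinery. By limma on log2(value + 1), two-sided, with Benjamini-Hochberg adjustment over all 15747 genes and a threshold of 0.05, 40 of the 47 members rose and 1, Ddit3, fell, so that 41 were called, against 59.7% of all genes. Atf4, Trib3, Herpud1, Edem2, Spcs1 and Spcs2 did not pass. Among all genes tested 28.5% rose and 31.3% fell, so calls were common, and the share of members that rose was 85.1%. Their median log2 fold change was 0.65, with a range of -0.44 to 1.54, beside a median of -0.02 over all genes. In 39 members every injury library was above every sham library, and in 1 every injury library was below, against 26.7% and 28.9% of all genes. A rise of at least 2-fold was reached by 13 members, or by 7.94% of all genes. As the list was chosen with earlier results known, these shares are a description, and the list as a whole was not tested.

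Summed, the 47 genes held 1.03, 1.11, 0.971 and 1.01% of all normalised counts in injury libraries 1 to 4, against 0.619, 0.645, 0.636 and 0.529% in sham libraries 1 to 4. The lowest injury share was thus above the highest sham share. With the mean of the muscle markers added to the model as a covariate, 31 members were called higher and 1 lower, while the number of genes called overall was 3713 in place of 9402. The median log2 fold change of the members was again 0.65 in that model, and 43 of the 47 values were positive. Without injury libraries 3 and 4 and sham library 4, which held the most muscle RNA for their groups, 38 members were called higher and 1 lower. The lower one was then Trib3 and not Ddit3.

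**Figure D1:**
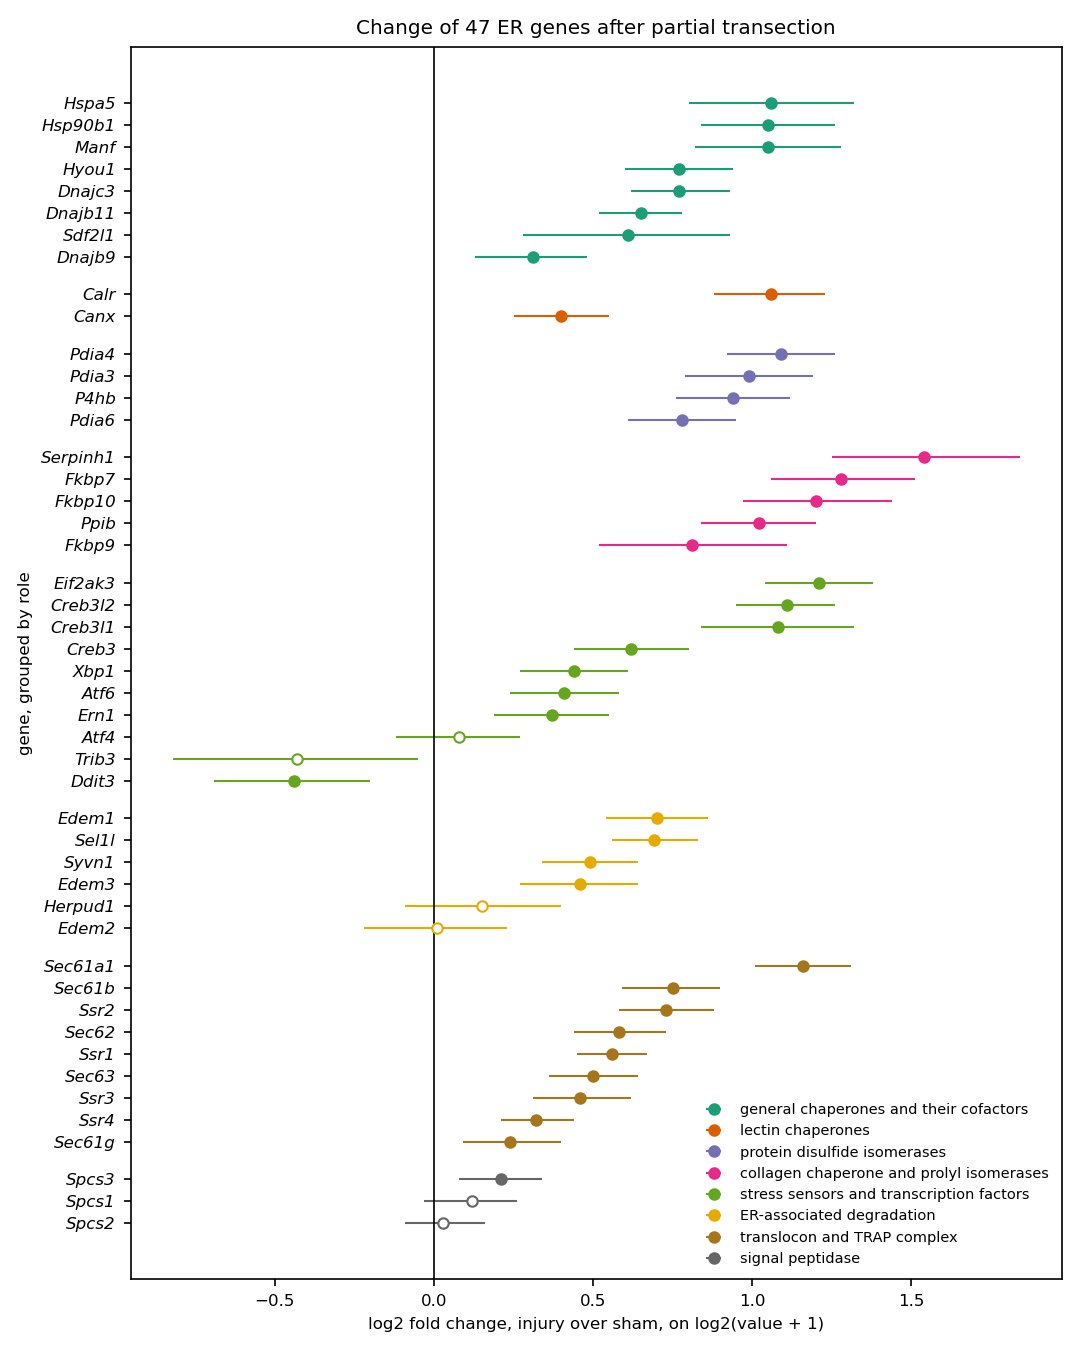
Log2 fold change (injury over sham) of each of the 47 members, grouped by role, with bars of nominal 95% intervals (± 1.96 standard errors). Filled points passed the test at an adjusted p of 0.05 and open points did not. Serpinh1 lies farthest to the right, and Ddit3 is the filled point left of 0.

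The general chaperones and their cofactors rose in 8 of 8 cases, against 28.5% of all genes, with a median log2 fold change of 0.77. Hspa5 (BiP), the central Hsp70 chaperone of the ER, lies on the plus strand of chromosome 2 at 34771970 to 34777547 (GRCm38). It had 8870, 11352, 8082 and 11391 normalised read counts in injury libraries 1 to 4, against 4835, 4541, 4269 and 5240 in sham libraries 1 to 4. Injury libraries 2 and 4 were the high ones, and the groups did not overlap. The log2 fold change was 1.06 ± 0.13 (SE), a 2.08-fold rise with an adjusted p of 0.000157.

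Hsp90b1 (GRP94), the ER form of Hsp90, had 5448, 6883, 5381 and 6934 in injury and 3117, 3109, 2712 and 2898 in sham. Injury libraries 2 and 4 were again the high ones. It rose 2.07-fold (log2 1.05 ± 0.11, adjusted p = 5.78e-05), and 10.3% of its exon bases are shared with 1810014B01Rik, which rose by 0.86. Manf, a small ER protein that binds Hspa5 and can be secreted, had 1632, 2061, 1411 and 1694 in injury and 774, 729, 849 and 903 in sham. Its rise was 2.07-fold as well (log2 1.05 ± 0.12).

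The other 5 rose by less. Hyou1 (GRP170), a large Hsp70-like protein that exchanges nucleotide on Hspa5, averaged 1384 ± 138 in injury and 810 ± 62.0 in sham (SD, n = 4 each), a log2 fold change of 0.77. Dnajc3 (p58IPK), a J-domain partner of Hspa5, averaged 2684 ± 233 in injury and 1569 ± 77.8 in sham, also 0.77. Dnajb11 (ERdj3), a J-domain protein that carries unfolded chains to Hspa5, reached 0.65. Sdf2l1, which works with ERdj3, had 226, 244, 137 and 192 in injury, against 134, 131, 126 and 121 in sham. Injury library 3 lay just above the sham range, and its log2 fold change of 0.61 ± 0.17 (adjusted p = 0.0116) became 0.09 with the muscle covariate (adjusted p = 0.847). Dnajb9 (ERdj4), which holds Ern1 in check, had the smallest rise of the group at 0.31 ± 0.09 (adjusted p = 0.0154), with 664 to 818 in injury overlapping 536 to 666 in sham. The call on Dnajb9 ended with equal library totals (log2 0.21, adjusted p = 0.0692) and with the muscle covariate (log2 0.33, adjusted p = 0.224).

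**Figure D2:**
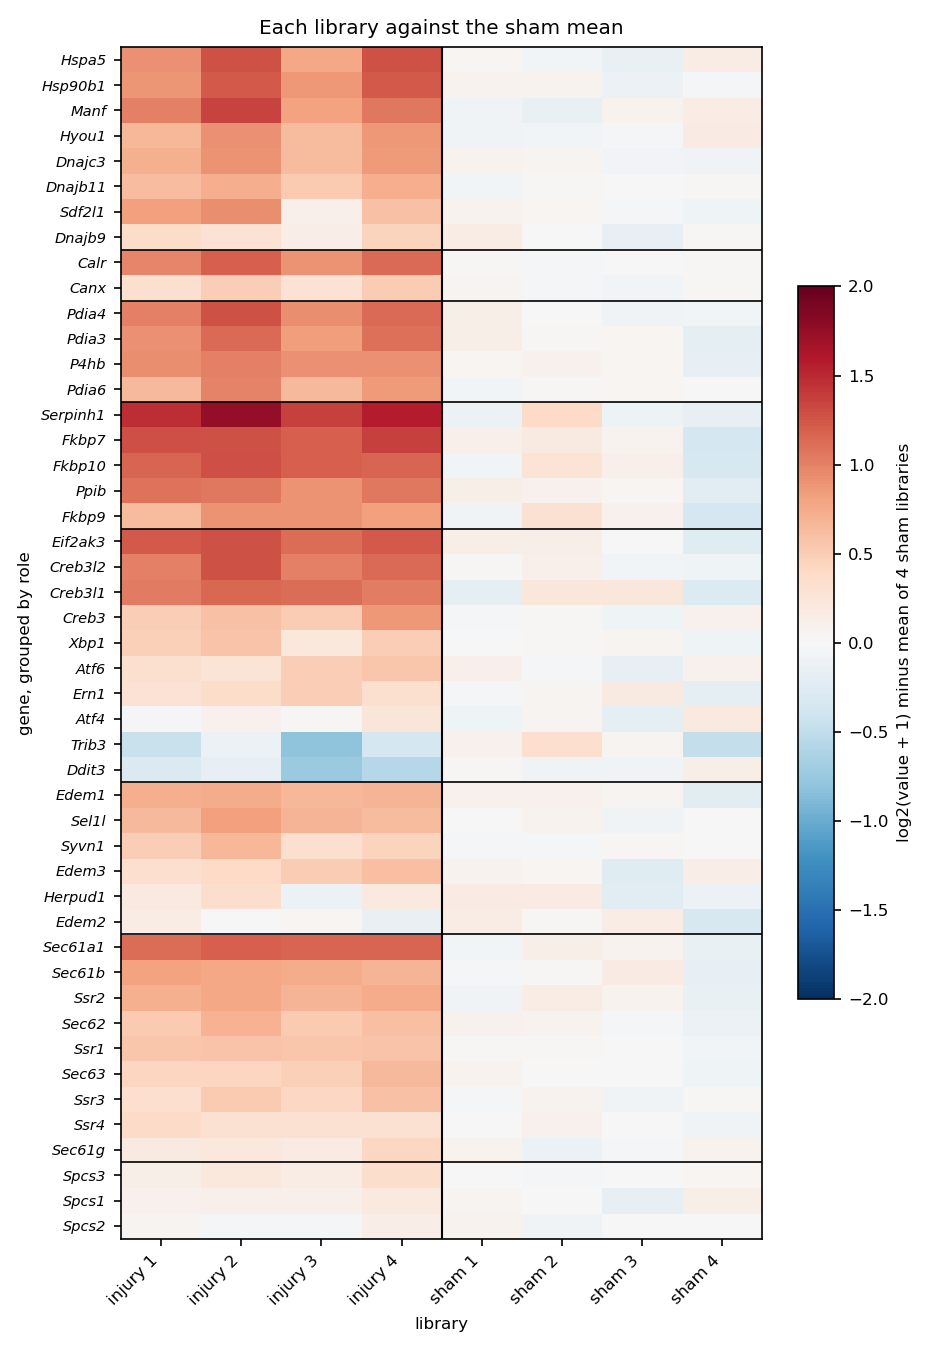
Heat map of log2(value + 1) minus the sham mean for each member (rows, by role) in each library (columns, injury left of sham), on a scale from -2 to 2. Most rows are high in all 4 injury libraries, whereas Ddit3 and Trib3 are low in them.

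Both lectin chaperones, which hold glycoproteins while they fold, rose, but by different amounts. Calr (calreticulin), the soluble one, had 9664, 11306, 9182 and 10821 in injury, against 4996, 4757, 4907 and 4987 in sham, and rose 2.08-fold (log2 1.06 ± 0.09, adjusted p = 2.29e-05). Canx (calnexin), its membrane-bound relative, had 3672, 4125, 3579 and 4166 in injury, against 3065, 2884, 2823 and 2980 in sham, a 1.32-fold rise (log2 0.40 ± 0.08, adjusted p = 0.00159). The 95% intervals of the log2 fold changes, 0.88 to 1.23 for Calr and 0.25 to 0.55 for Canx, did not overlap. Both promoters hold an ERSE match.

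The 4 protein disulfide isomerases, which form and rearrange disulfide bonds, all rose, against 28.5% of all genes, by log2 fold changes of 0.78 to 1.09. P4hb is both a disulfide isomerase and the beta subunit of the collagen prolyl 4-hydroxylase. It had 12735, 13472, 12582 and 12681 in injury, against 6864, 7144, 6878 and 5989 in sham, a 1.92-fold rise (log2 0.94 ± 0.09). The 4 injury libraries were close together. Pdia4 (ERp72) rose most, with 1346, 1606, 1266 and 1467 in injury and 725, 662, 634 and 644 in sham (log2 1.09 ± 0.09, adjusted p = 1.5e-05). Pdia3 (ERp57), the partner of the lectin chaperones, rose by 0.99 ± 0.10, and Pdia6 by 0.78 ± 0.09.

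The collagen chaperone and the prolyl isomerases had the highest median of any role, 1.20, and all 5 rose, against 28.5% of all genes. Serpinh1, on the minus strand of chromosome 7 at 99345376 to 99353239, had 20493, 25040, 19118 and 21811 in injury, against 6814, 9670, 6863 and 6555 in sham. Sham library 2 was the high sham library, yet the lowest injury library was 1.98 times as high as it. The means were 21620 ± 2534 in injury and 7476 ± 1469 in sham (SD, n = 4 each), a 2.91-fold difference (log2 1.54 ± 0.15, adjusted p = 4.46e-05). With the muscle covariate the log2 fold change was 1.44.

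Fkbp7, an ER prolyl isomerase, had 1251, 1233, 1177 and 1324 in injury, against 549, 579, 536 and 400 in sham, and rose 2.43-fold (log2 1.28 ± 0.11). Fkbp10 (FKBP65), which acts on procollagen and whose loss causes brittle bone disease in humans, had 3541, 3871, 3603 and 3531 in injury, against 1509, 1909, 1692 and 1265 in sham (log2 1.20 ± 0.12, 2.31-fold). In both genes the injury libraries were tightly grouped and sham library 4 was lowest. Ppib (cyclophilin B), part of the complex that hydroxylates a single proline in collagen chains, had 3773 to 4337 in injury and 1735 to 2201 in sham (log2 1.02 ± 0.09). Of the exon bases of Ppib 25.0% are shared with Snx22, which itself rose by 0.92, and the strandedness of the counting is not given. Fkbp9 (FKBP63) had 15599, 18713, 18805 and 17803 in injury, against 9609, 12434, 10681 and 8002 in sham (log2 0.81 ± 0.15, adjusted p = 0.00125). It was the only one of the 5 whose call ended with the muscle covariate, where its log2 fold change was 0.84 and its adjusted p 0.0547.

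On a scale of normalised read counts per kilobase of exon, Serpinh1 had the highest level of all 47 members in injury, 8848, followed by Fkbp9 at 5350, P4hb at 4498 and Calr at 3557. In sham the order at the top was Fkbp9 at 3072, Serpinh1 at 3060, P4hb at 2348 and Calr at 1705, and the first pair did not differ beyond the spread of their libraries. At the bottom were Trib3, with 50.2 per kilobase in injury and 68.5 in sham, and Ern1, with 76.3 per kilobase in injury and 59.3 in sham.

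The collagens that Serpinh1 serves were read in the same libraries. Col1a1, Col1a2, Col3a1, Col5a1 and Col5a2 together held 15.7, 17.7, 15.4 and 15.4% of all normalised counts in injury libraries 1 to 4, against 4.73, 7.86, 5.21 and 3.65% in sham libraries 1 to 4. Col3a1, Col5a1 and Col5a2 rose, by log2 fold changes of 2.45, 2.64 and 2.46. Col1a1 had a log2 fold change of 1.77 with an adjusted p of 0.0524 and Col1a2 one of 1.49 with an adjusted p of 0.133, although for both every injury library lay above every sham library. Col1a1 had 882213 to 1113752 in injury and 215087 to 472776 in sham, and Col1a2 1001987 to 1186950 in injury and 290215 to 583679 in sham. Their standard errors, 0.70 and 0.79, come from a fit whose prior variance follows abundance. The part of that trend in the missed calls was not tested. Sham library 2, high for Serpinh1, was also the sham library with the largest collagen share.

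**Figure D3:**
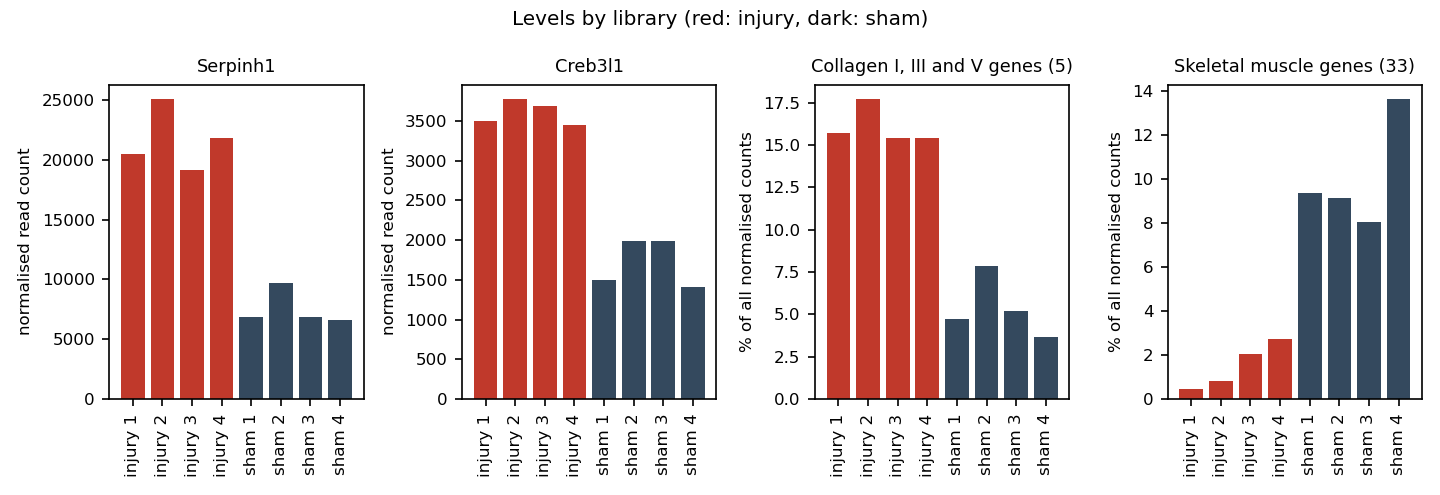
Bars by library, injury left of sham, each from 0: normalised read counts of Serpinh1 and Creb3l1, and the percent of all normalised counts held by the collagen I, III and V genes and by the skeletal muscle markers. Serpinh1, Creb3l1 and the collagens are higher in all 4 injury libraries, and the muscle share is lower in all 4.

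The stress sensors and transcription factors were the most divided role: 7 of 10 were higher after injury, 1 was lower and 2 missed the threshold. Of all genes 28.5% were higher and 31.3% lower. The median log2 fold change of the 10 was 0.43. Eif2ak3 (PERK), the kinase that slows translation when unfolded chains build up, rose most among them. It had 1151, 1188, 1074 and 1156 in injury, against 533, 534, 498 and 416 in sham, so that the lowest injury library was 2.01 times the highest sham library. The log2 fold change was 1.21 ± 0.09, or 2.31-fold, with an adjusted p of 1.02e-05. Of its exon bases 8.0% are shared with Gm43292, a much weaker transcript that averaged 134 in injury and 52.0 in sham.

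Ern1 and Atf6, the other two sensors, rose by less. Ern1, a kinase and RNase that splices Xbp1 mRNA, had 590, 623, 677 and 604 in injury, against 468, 501, 549 and 420 in sham (log2 0.37 ± 0.09, adjusted p = 0.00679). Atf6, a membrane-held factor released by cleavage in the Golgi, had 908, 880, 1024 and 1069 in injury, against 781, 717, 650 and 769 in sham (log2 0.41 ± 0.09, adjusted p = 0.00332). The interval of Eif2ak3, 1.04 to 1.38, lay wholly above those of Ern1, 0.19 to 0.55, and Atf6, 0.24 to 0.58. The call on Ern1 ended with equal library totals (log2 0.28, adjusted p = 0.0725) and with the muscle covariate (log2 0.34, adjusted p = 0.214).

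Xbp1, the factor made active by that splicing, had 3069, 3301, 2574 and 3124 in injury, against 2218, 2256, 2307 and 2079 in sham (log2 0.44 ± 0.09, adjusted p = 0.00198). Injury library 3 lay nearest to sham, and with the muscle covariate the log2 fold change was 0.28 with an adjusted p of 0.239. Gene totals do not separate spliced from unspliced Xbp1, and cleavage of Atf6 and phosphorylation of PERK are not seen in RNA, so none of these values measures the activity of a sensor.

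The 3 membrane-held relatives of Atf6 in the list all rose. Creb3l1 (OASIS), which in mouse bone drives the type I collagen gene, had 3504, 3773, 3696 and 3451 in injury, against 1501, 1994, 1993 and 1406 in sham (log2 1.08 ± 0.12, 2.12-fold, adjusted p = 9.26e-05). Creb3l2 (BBF2H7), which in mouse cartilage supports the export of matrix proteins, had 2287, 2750, 2288 and 2508 in injury, against 1160, 1222, 1098 and 1074 in sham (log2 1.11 ± 0.08, 2.15-fold, adjusted p = 9.38e-06). The lowest injury library was 1.73 times the highest sham library for Creb3l1 and 1.87 times for Creb3l2. Creb3 (Luman) had 726, 774, 733 and 940 in injury, against 507, 524, 482 and 546 in sham (log2 0.62 ± 0.09). Of its exon bases 15.2% are shared with Tln1, a more abundant gene whose log2 fold change was 0.29.

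None of the 3 factors of the Atf4 branch rose. Atf4, which activates the branch and is controlled mainly through its translation, had 2391, 2622, 2499 and 2918 in injury, against 2332, 2570, 2181 and 2830 in sham. The groups overlapped, and the log2 fold change was 0.08 (interval -0.12 to 0.27, adjusted p = 0.531). Ddit3 (CHOP), a factor tied to cell death under lasting stress, lies on the plus strand of chromosome 10 at 127290774 to 127296288. It had 353, 386, 259 and 291 in injury, against 440, 412, 414 and 470 in sham. All 4 injury libraries were below all 4 sham libraries, by a narrow margin between injury library 2 and sham library 2. Ddit3 fell by 0.44 ± 0.13 on the log2 scale (adjusted p = 0.0127). It shares 4.0% of its exon bases with Mars1, which did not pass (log2 -0.04).

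That call depended on which libraries were used: without injury libraries 3 and 4 and sham library 4 the log2 fold change was -0.19 with an adjusted p of 0.0935, while with any single library left out it lay between -0.54 and -0.34 and passed. With the muscle covariate it was -0.80 (adjusted p = 0.0271). Trib3, a pseudokinase induced by Atf4 and Ddit3, had 104, 131, 81 and 111 in injury, against 151, 181, 148 and 102 in sham. Sham library 4 lay within the injury range, and the log2 fold change of -0.43 ± 0.20 did not pass (adjusted p = 0.0849). Without sham library 4 it was -0.59 and passed (adjusted p = 0.0162), and without injury libraries 3 and 4 and sham library 4 it was -0.45 and passed (adjusted p = 0.0456).

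**Figure D4:**
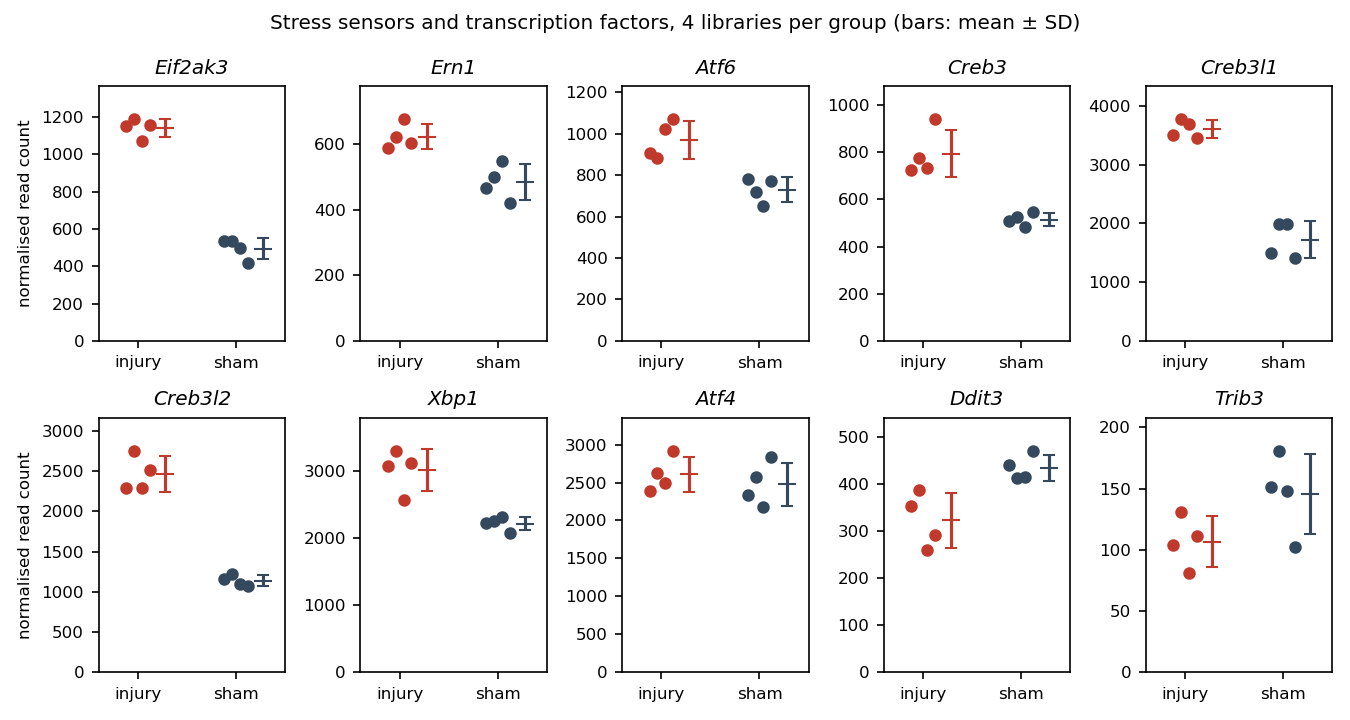
Normalised read counts of the 10 stress sensors and transcription factors in each library (points) with mean ± SD, injury left of sham in each panel. Eif2ak3, Creb3l1 and Creb3l2 show the widest gaps between groups, Atf4 overlaps, and Ddit3 is lower in all 4 injury libraries.

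The ER-associated degradation genes, which recognise misfolded chains and return them to the cytosol, rose in 4 of 6 cases (66.7%, against 28.5% of all genes), none of them by 2-fold. Edem1, a lectin-like protein that marks glycoproteins for removal, had 1223, 1240, 1180 and 1185 in injury, against 785, 790, 772 and 633 in sham (log2 0.70 ± 0.08, adjusted p = 0.000101). Sel1l and Syvn1 (HRD1), the adaptor and the ubiquitin ligase of the main export complex, rose by 0.69 ± 0.07 and 0.49 ± 0.08. Edem3, a mannose-trimming enzyme, rose by 0.46 ± 0.10. With the muscle covariate the call on Syvn1 ended (log2 0.34, adjusted p = 0.119).

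Edem2, the mannosidase that makes the first trim, had 418, 374, 387 and 339 in injury, against 418, 382, 416 and 303 in sham. The ranges were nearly the same, and the log2 fold change was 0.01, with an interval of -0.22 to 0.23 (adjusted p = 0.965). The nominal interval of Edem1, 0.54 to 0.86, lay well above that of Edem2, while that of Edem3, 0.27 to 0.64, began close to its upper end. These genes were not tested against each other. Herpud1, an ER membrane protein of the same export complex with an ERSE-II match and an amino acid response element match, had 2140, 2372, 1709 and 2131 in injury, against 2096, 2088, 1610 and 1711 in sham. The groups overlapped (log2 0.15, interval -0.09 to 0.40, adjusted p = 0.312).

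The translocon and the TRAP complex, which move new chains across the ER membrane, rose in 9 of 9 cases with a median log2 fold change of 0.56. For each of the 9, every injury library was above every sham library. Of all genes 28.5% rose, and 26.7% had every injury library above every sham library. Sec61a1, the pore-forming subunit, had the largest rise of the 9. It had 3874, 4064, 3992 and 3998 in injury, against 1712, 1943, 1877 and 1614 in sham (log2 1.16 ± 0.07, 2.23-fold, adjusted p = 5.04e-06). Its exons share 8.2% of their bases with Gm44170, which averaged 1418 in injury and 742 in sham.

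The small subunits of the same pore rose by less. Sec61b had 759, 741, 726 and 698 in injury, against 426, 441, 489 and 390 in sham (log2 0.75 ± 0.08). Sec61g had 503, 510, 494 and 589 in injury, against 463, 409, 436 and 462 in sham (log2 0.24 ± 0.08, adjusted p = 0.0252), and its call ended in 6 of 19 alternatives, where its log2 fold change was 0.15 to 0.41. The intervals of the 3 subunits were 1.01 to 1.31 for Sec61a1, 0.59 to 0.90 for Sec61b and 0.09 to 0.40 for Sec61g, and no pair of them overlapped. Sec62 and Sec63, which help chains that arrive after translation and recruit Hspa5, rose by 0.58 and 0.50.

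The 4 TRAP subunits, which sit beside the channel and help many chains to insert, rose by 0.32 to 0.73. Ssr1 (TRAP alpha) had 2864, 2891, 2864 and 2882 in injury, against 1976, 1982, 1956 and 1864 in sham, an SD of 13.5 among the injury libraries around a mean of 2875 (log2 0.56 ± 0.06). Ssr2 rose by 0.73 ± 0.08, Ssr3 by 0.46 ± 0.08 and Ssr4 by 0.32 ± 0.06. Ssr4 lost its call with the muscle covariate (log2 0.24, adjusted p = 0.179).

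The 3 listed subunits of the signal peptidase, the complex that cuts off the signal peptide, had the lowest median of any role, 0.12. Of them 1 rose (33.3%), a share near the 28.5% of all genes. The catalytic subunit gene Sec11a is not among the members and is given below. Spcs1 had 1003, 1019, 1020 and 1083 in injury, against 984, 947, 846 and 1032 in sham (log2 0.12, interval -0.03 to 0.26, adjusted p = 0.193). It passed when totals were set equal without the 100 most abundant genes (log2 0.17, adjusted p = 0.0342). Spcs2 had 1068, 1005, 1018 and 1136 in injury, against 1082, 979, 1035 and 1030 in sham (log2 0.03, interval -0.09 to 0.16, adjusted p = 0.671). Spcs3, which is required for cleavage, had 1175, 1251, 1202 and 1372 in injury, against 1080, 1056, 1078 and 1103 in sham. Its rise of 0.21 ± 0.07 passed (adjusted p = 0.0202). The call, though not the direction, was lost in 4 of 19 alternatives, where the log2 fold change was 0.12 to 0.37. Of the exon bases of Spcs1 16.3% are shared with Glt8d1, whose log2 fold change was 0.36.

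Read against the ERSE matches, the 7 members that had one all rose, with a median log2 fold change of 0.78 and a range of 0.40 to 1.06. Of the 32 members with a promoter entry and no ERSE match, 25 rose and 1 fell, with a median of 0.57 and a range of -0.44 to 1.54. Serpinh1 and Fkbp7, the members with the largest and the next largest fold change, were among these 32. Of all 47 members 85.1% rose, and of all genes 28.5% rose and 31.3% fell. Whether members with and without a match differed was not tested.

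Whether pairs of transcripts changed by different amounts was read from 6 log2 ratios within each library, which do not depend on the scaling of the libraries. With 4 libraries against 4 the exact two-sided permutation test cannot give a p below 0.0286. After Benjamini-Hochberg adjustment over the 6 ratios no ratio passed. Given that floor, a single ratio could not have passed by itself, however wide its gap. For 3 ratios the groups did not overlap, each with an exact permutation p = 0.0286 and an adjusted p of 0.0572. Ddit3 over Hspa5 was -4.65, -4.87, -4.96 and -5.29 in injury, against -3.45, -3.46, -3.36 and -3.48 in sham, a difference of -1.50. Creb3l1 over Atf6 was 1.95, 2.10, 1.85 and 1.69 in injury, against 0.94, 1.47, 1.61 and 0.87 in sham, a difference of 0.67. Fkbp10 over Fkbp9 was -2.14, -2.27, -2.38 and -2.33 in injury, against -2.67, -2.70, -2.66 and -2.66 in sham, a difference of 0.39.

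The other 3 ratios overlapped between the groups. Serpinh1 over the summed collagen I, III and V genes was -6.80, -6.77, -6.95 and -6.84 in injury, against -6.62, -6.89, -6.69 and -6.44 in sham, a difference of -0.18 (exact permutation p = 0.143, adjusted p = 0.172). Serpinh1 over Hspa5 was 1.21, 1.14, 1.24 and 0.94 in injury, against 0.49, 1.09, 0.68 and 0.32 in sham, a difference of 0.48 (exact permutation p = 0.0571, adjusted p = 0.0857). Hsp90b1 over Hspa5 was -0.70, -0.72, -0.59 and -0.72 in injury, against -0.63, -0.55, -0.65 and -0.85 in sham, a difference of -0.01 (exact permutation p = 0.914). A p above the threshold does not show that these pairs changed alike.

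**Figure D5:**
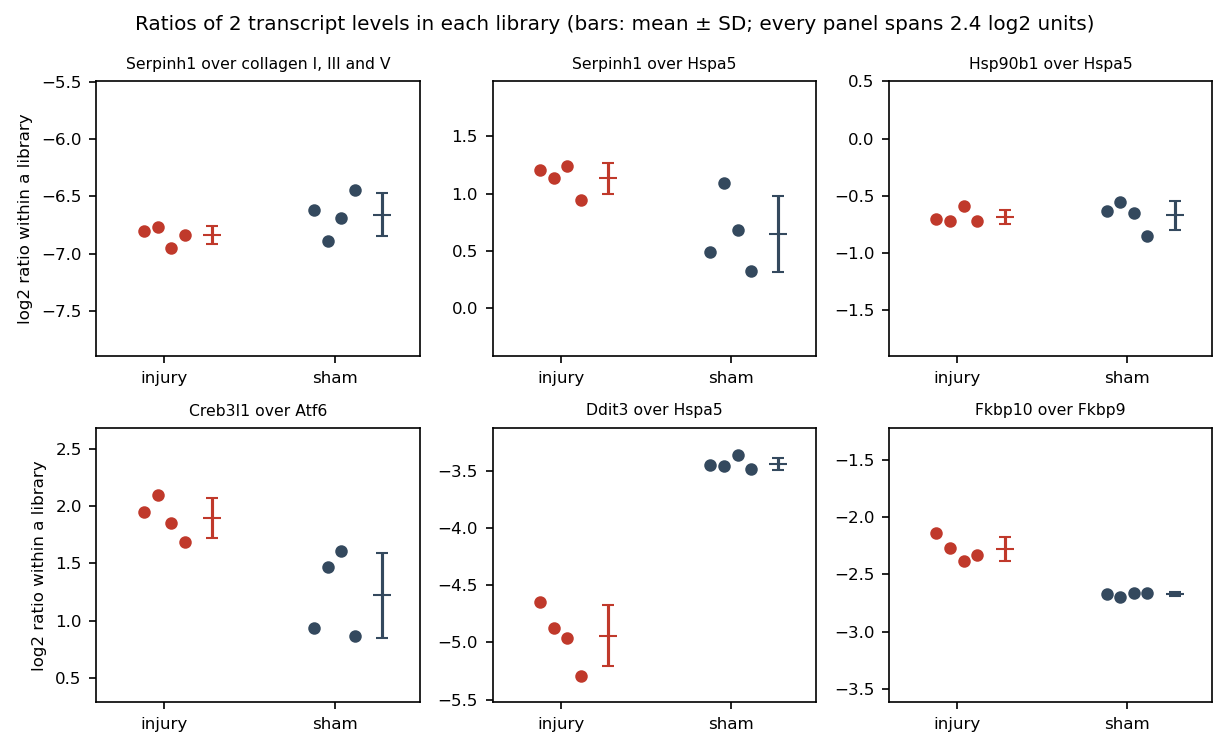
Within-library log2 ratios of 6 pairs of transcripts, injury left of sham, with each library as a point and the mean ± SD beside them; every panel spans 2.4 log2 units. Ddit3 over Hspa5 shows the widest gap, with a difference of -1.50, and Hsp90b1 over Hspa5 shows almost none.

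Among the injury libraries, library 2 was the highest of the 4 in 26 of 47 members (55.3%) and library 3 the lowest in 27 (57.4%), against 22.2% and 19.6% of all genes. Of the 19 chaperones, lectins, disulfide isomerases and collagen-related isomerases, 17 were lowest in injury library 3 and 12 highest in injury library 2. These shifts were small beside the group difference, since the median deviation from the injury mean was 0.067 (log2) in library 2 and -0.081 in library 3. Among the sham libraries, library 4 was lowest in 24 members (51.1%), against 34.5% of all genes, with a median deviation of -0.068. Sham library 4 also had the largest muscle share, 13.6%, and the smallest collagen share, 3.65%. The part of these in its lower values was not tested.

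The rest of the ER machinery was read from 5 further lists, with 97 of 100 genes measured. Of these 55 rose (56.7%) and 16 fell, beside 28.5% higher and 31.3% lower among all genes. Their median log2 fold change was 0.33. Oligosaccharyltransferase, which attaches sugars to new chains, rose in 11 of 12 subunits (91.7%). Stt3a, the catalytic subunit of the form bound to the translocon, had 2492, 2693, 2626 and 2928 in injury, against 1365, 1281, 1315 and 1164 in sham (log2 1.07 ± 0.08), and Ostc, another subunit of that form, rose by 0.83. Rpn2 (ribophorin II), the most abundant subunit by total count, rose by 0.37. Stt3b, the catalytic subunit of the other form, rose by 0.36 ± 0.08 and is named after its value was seen.

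Of 26 other folding and retrieval genes 23 rose (88.5%, against 28.5% of all genes). Kdelr2, a receptor that returns escaped chaperones to the ER, had 2864, 2939, 2931 and 2859 in injury, against 1182, 1342, 1320 and 1129 in sham (log2 1.22 ± 0.07, adjusted p = 3.33e-06). Fkbp14, a prolyl isomerase that acts on collagen, had 1447, 1548, 1432 and 1586 in injury, against 604, 690, 658 and 543 in sham (log2 1.27 ± 0.08). Calu (calumenin), a calcium-binding protein of the secretory pathway, had 11835, 12738, 12027 and 12543 in injury, against 5424, 5697, 5253 and 5235 in sham (log2 1.19 ± 0.08).

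The remaining lists were mixed. Of 14 other degradation genes measured, 6 rose (42.9%) and 4 fell, against 28.5% higher and 31.3% lower among all genes. Erlec1, a lectin of the export complex, rose by 1.02 and Faf2 by 0.74. The ubiquitin-conjugating enzyme genes Ube2g2 and Ube2j2 fell by 0.66 and 0.31 on the log2 scale. Ube2g2 followed the order of the muscle share over the injury libraries and was highest in sham library 4. The part of muscle RNA in its fall was not tested. Vcp, the ATPase that pulls chains out of the membrane, did not pass (log2 -0.24, adjusted p = 0.127). Of 20 other stress genes measured, 8 rose and 1 fell. Mbtps1, the protease that cleaves Atf6 in the Golgi, had 3475, 3500, 3247 and 3378 in injury, against 1984, 2006, 1886 and 1696 in sham (log2 0.85 ± 0.07), Nupr1, a stress-induced chromatin protein, rose by 1.33, and Cebpb, a dimer partner of Ddit3, fell by 0.69 on the log2 scale. Cebpb shares 20.7% of its exon bases with Tmem189. The other genes of that list known as targets of Atf4 or Ddit3 were mixed, and are named after their values were seen. Sesn2 rose by 0.42, Phgdh by 0.60 and Bbc3 by 0.58, whereas Atf3 (log2 -0.07), Chac1 (-0.13), Asns (0.16), Ppp1r15a (-0.04), Ddit4 (0.10), Psat1 (-0.39) and Shmt2 (0.12) did not pass.

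In targeting and insertion 7 of 25 measured genes were higher and 11 lower, beside 28.5% higher and 31.3% lower among all genes. Tram2, a translocon-associated protein linked to collagen synthesis, had 1516, 1528, 1709 and 1501 in injury, against 603, 591, 624 and 589 in sham (log2 1.37 ± 0.06, adjusted p = 9.67e-07). Sec11a, a catalytic subunit of the signal peptidase, rose by 0.73 ± 0.06. Sec11c, named after its value was seen, did not pass (log2 -0.07, adjusted p = 0.421). Emc6 and Emc9, subunits of the ER membrane complex that inserts membrane proteins, fell: Emc6 had 217, 230, 258 and 334 in injury, against 729, 656, 676 and 937 in sham (log2 -1.53 ± 0.16), and Emc9 fell by 0.91. Of the other subunits, named after their values were seen, Emc1, Emc2, Emc4 and Emc8 fell too, whereas Emc3 and Emc10 rose. Emc6 followed the order of the muscle share over the injury libraries. Each subunit that fell had its highest sham value in sham library 4, which had the largest muscle share. The part of muscle RNA in these falls was not tested. Srpr, the receptor of the signal recognition particle and the most abundant gene of the list, did not pass (log2 0.20, adjusted p = 0.0932). Sec61a2, a second gene for the pore-forming subunit, named after its value was seen, fell by 0.35 ± 0.08 on the log2 scale, whereas Sec61a1 rose, and 19.9% of its exon bases are shared with Nudt5.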

How the data were processed

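RNA of 4 injury and 4 sham Achilles tendon libraries was analysed, with groups taken from the titles. The deposited score is, per the file headers, a normalised read count for each gene. The authors had rounded it to whole numbers, and whole numbers are skipped or doubled at regular spacing in 6 of 8 libraries, so the values are not raw counts. Per the submitters' processing notes, the tools were STAR 2.7.6a, edgeR 3.12, StringTie 1.3.5 and Trimmomatic 0.39. The builds mm10 and mm9 are named there without roles. How the counts were normalised, and whether by strand, is not given in the sources used here. The files list 55450 genes, and 15747 have values.

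No count model was used. limma 3.58.1 (R 4.3.3) was fitted with trend to log2(value + 1) by group, and the filter (4 or more libraries with a value of 1 or more) dropped no gene. Two-sided p-values were adjusted by Benjamini-Hochberg over all genes, with a threshold of 0.05. Fold changes are on this log2 scale, and the nominal 95% intervals are 1.96 standard errors either way. With 4 libraries per group they are narrower than the limma test implies. The interval of Trib3, -0.82 to -0.05, left out 0 at an unadjusted limma p of 0.0549. The ratios were given an exact permutation test with scipy 1.17.1. Library totals, 13596488 to 16263086 normalised counts, are not sequencing depth, so no counting error is given. Libraries of a group were not duplicates, with equal values for 1.11 to 2.25% of genes in a pair.

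The members and gene lists were chosen with earlier results of these data known. Named genes are all members, in each further ER list the 2 called genes with the smallest adjusted p in each direction and the most abundant gene, the collagens and ratio genes, and the sum of each marker list. Exon lengths, positions and overlaps came from GENCODE M21 (GRCm38), which holds 99.9% of the gene identifiers, and 14 members share exon bases with another tested gene. Alternatives were other scalings, a pseudocount of 0.1, other filters, a replicate block, a muscle covariate, a single prior variance and libraries left out. Figures were drawn with matplotlib 3.10.9 (Python 3.11.15).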

Additional observations from a re-analysis of the deposited data

Results flagged for a closer look

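In 108 groups of 4 values (most of them members and ratios in each group), 7 had a highest or lowest library far from the other 3, by Dixon's criterion of 0.829 for the gap divided by the range. Chance gives about 1 in 20. Among injury libraries, Sec61g had 589 as its highest value, against 494 to 510 in the others. Sec63 reached 2064 in one injury library, against 1787 to 1831 in the others. Ssr4 reached 1074 in one injury library, against 1021 to 1026. The log2 ratio of Hsp90b1 over Hspa5 was highest in an injury library at -0.59, against -0.72 to -0.70 in the others. Among sham libraries, Serpinh1 reached 9670, against 6555 to 6863 in the others. Hyou1 reached 903 in one sham library, against 773 to 783. Edem1 was lowest in one sham library at 633, against 772 to 790. Each of these genes was still called higher with any single library left out, except Sec61g.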

How the results depend on the processing

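Across 19 alternatives, 31 of the 41 called members kept their direction and their call, and 36 of the 40 that rose did so in every alternative other than the muscle covariate. The count of members called higher was 36 with equal library totals, 31 with the muscle covariate, 38 to 40 with any single library left out and 38 without the 3 libraries richest in muscle RNA for their group. Equal totals set the median of all genes at -0.112, with 3428 genes higher and 5553 lower. The muscle covariate left 3713 genes called, 2131 higher and 1582 lower. That covariate itself differs between the groups. Members called lower numbered 1 to 2 with single libraries left out, Trib3 being the other, without sham replicate 4. Trib3 was also called lower without the 3 muscle-rich libraries (-0.45), where Ddit3 was not (-0.19). Spcs1 was called higher (0.17) with equal totals without the 100 most abundant genes, which made 41 members higher. The ratio of Fkbp10 over Fkbp9 was 0.47 without the 3 muscle-rich libraries. The cause of these differences was not tested.

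Of members that had not passed, the sign turned with equal totals in Atf4 (-0.02), Edem2 (-0.08) and Spcs2 (-0.06), and with the muscle covariate in Herpud1 (-0.03) and Edem2 (-0.35). Edem2 was -0.10 without sham replicate 4, -0.04 without injury replicate 1, -0.004 without injury replicate 3 and -0.03 without the 3 muscle-rich libraries. Spcs2 was -0.0012 without injury replicate 4. With single libraries left out Edem2 ranged from -0.10 to 0.06 and Spcs2 from -0.0012 to 0.06. With the replicate number as a block 9742 genes were called, and 40 members higher and 1 lower. The block changed no member's call. The correlations of same-numbered libraries' deviations were 0.249, 0.284, -0.0096 and 0.493, and as 1 of the 4 is not above 0.1 the samples were taken to share only a number. Injury libraries 2 and 4 correlated best with their own number, injury library 1 with sham library 3 (0.256, against 0.249) and injury library 3 with sham library 4 (0.200). The paired ratio tests cannot give an exact p below 0.125.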
